A study of Mus musculus with 8 samples.

Results

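The adult hemoglobin genes and a pair of erythroid genes, 6 in all, were followed through liver transcriptomes of mice lacking Usp39 in hepatocytes. The 6 genes were taken by symbol from the 55385 genes of the deposited table: the alpha globins Hba-a1 and Hba-a2, the beta globins Hbb-bs and Hbb-bt, the erythroid heme synthesis enzyme gene Alas2 and the band 3 gene Slc4a1. They were chosen by name after their lower FPKM in these same Usp39-HKO livers had been seen, so their levels and fold changes between the genotypes are given as a description, and any count of calls among them follows from that choice and is no test of them. RNA came from whole livers of 4 Usp39-HKO mice and 4 control littermates, all male C57BL/6J mice of 5 weeks, fasted for 16 h, with a library for each mouse and no pooling. Usp39-HKO mice carried Usp39 fl/fl, with exon 2 between loxP sites, together with Cre driven by the Albumin promoter, which acts in hepatocytes and not in blood cells. The labels give the genotype of the controls as WT. Whole-liver RNA also contains that of the blood left in the organ, and the sources used here do not give how much that was.

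Hemoglobin carries oxygen as a tetramer of alpha and beta chains, each holding a heme. Adult mice make it in red cell precursors of bone marrow and spleen, where Alas2 performs the first, rate-limiting step of heme synthesis and GATA1 and KLF1 drive transcription of the globin genes. Young red cells that have just entered the circulation, the reticulocytes, still hold globin and Alas2 mRNA, and hepatocytes make their own heme with the related enzyme Alas1. Liver is a site of red cell formation before birth and around it, but not in the healthy adult.

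The labelled genotype was checked first. Usp39 read 9.35, 10.4, 8.76 and 9.78 FPKM (fragments scaled to exon length and library total) in control mice A468, A472, A473 and A475, and 8.37, 8.63, 8.70 and 8.07 in Usp39-HKO mice A469, A470, A471 and A474, in this order here and below. All Usp39-HKO livers were below all control livers (log2 fold change −0.41, SE 0.11, edgeR quasi-likelihood test with Benjamini-Hochberg adjustment, adjusted p = 0.0212, n = 4 per genotype). The call was lost without scaling factors (−0.18), by limma (−0.16), without control A475 and without Usp39-HKO A474. The value counts the whole gene and all cell types of the liver, so it does not measure the deletion of exon 2 in hepatocytes. Total counts ran from 8589636 to 10418450 in controls and from 9479922 to 10195028 in Usp39-HKO livers, so that 3 counts equal 0.288 to 0.349 CPM, the count scaled to its library. The markers of the labelled tissue were abundant, with the 7 hepatocyte genes summing to between 18200 and 21100 FPKM in controls and between 16500 and 21800 in Usp39-HKO livers.

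The alpha globin genes Hba-a1 (ENSMUSG00000069919, GRCm38 chr11:32283511-32284465, plus strand) and Hba-a2 (ENSMUSG00000069917, chr11:32296489-32297298, plus strand) encode near-identical chains. The beta globin genes Hbb-bs (ENSMUSG00000052305, chr7:103826534-103828096, minus strand) and Hbb-bt (ENSMUSG00000073940, chr7:103812524-103813996, minus strand) lie side by side in the beta globin cluster. Alas2 (ENSMUSG00000025270, chrX:150547375-150570638, plus strand) encodes the erythroid 5-aminolevulinate synthase. Slc4a1 (ENSMUSG00000006574, chr11:102348824-102366203, minus strand) encodes band 3, the anion exchanger that anchors the red cell membrane to its skeleton. All are protein-coding.

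Promoter sequence is shown because erythroid transcription factors act on these genes through short elements, some of them close to the start site. The 120 bases before the RefSeq start site (GRCm38.p6, RefSeq) were available for 5 of the 6 genes, Slc4a1 being the other. The gene spans given above come from GENCODE, whose outermost start lies further upstream for these genes. The windows therefore overlap those spans, wholly for Hba-a1 and Hbb-bs and in part for the rest. Capitals mark 4 motifs searched on both strands. The first is the TATA-like element with the letters ATATAA. The second is the CCAAT box, spelled as it is named, which reads ATTGG on the reverse strand. The third is the CACCC box, also spelled as named, the kind of element KLF1 binds, which reads GGGTG on the reverse strand. The last is a GATA motif, that is GATA preceded by A or T and followed by A or G, which reads TTATCT on the reverse strand in Alas2. No marked letters of different motifs overlapped.
Hba-a1, chr11:32283552-32283671, plus strand: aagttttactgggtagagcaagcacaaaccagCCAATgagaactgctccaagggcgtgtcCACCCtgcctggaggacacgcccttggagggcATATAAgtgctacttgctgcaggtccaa
Hba-a2, chr11:32296372-32296491, plus strand: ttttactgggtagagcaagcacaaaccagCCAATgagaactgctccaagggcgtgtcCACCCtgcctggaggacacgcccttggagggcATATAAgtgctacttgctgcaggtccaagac
Hbb-bs, chr7:103827929-103828048, minus strand: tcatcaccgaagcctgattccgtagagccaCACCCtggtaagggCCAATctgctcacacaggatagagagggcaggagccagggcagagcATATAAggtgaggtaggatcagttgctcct
Hbb-bt, chr7:103813924-103814043, minus strand: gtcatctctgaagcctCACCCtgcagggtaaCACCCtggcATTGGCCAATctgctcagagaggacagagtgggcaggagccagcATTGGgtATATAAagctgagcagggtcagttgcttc
Alas2, chrX:150547297-150547416, plus strand: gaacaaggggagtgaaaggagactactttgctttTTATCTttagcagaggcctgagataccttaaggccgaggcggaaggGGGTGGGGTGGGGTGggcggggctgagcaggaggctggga

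All 4 globin promoters held the TATA-like element, a CCAAT box and a CACCC box, and none held a GATA motif in this window. The TATA-like element began 28 bases before the start of Hba-a1, 31 before Hba-a2, 30 before Hbb-bs and 29 before Hbb-bt. The Alas2 promoter held a GATA motif 86 to 81 bases before the start and a run of 3 CACCC boxes on the reverse strand, with no TATA-like element and no CCAAT box. Over 32851 mouse promoters of the same length, 4.47% held the TATA-like element, 21.3% a CCAAT box, 31.7% a CACCC box and 12.8% a GATA motif. The upstream sequences of Hba-a1 and Hba-a2 were identical over all 247 aligned bases, with Hba-a2 shifted by 3 bases relative to its start. A match describes the letters and is not evidence that a factor binds there.

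Both alpha globin genes were lower in every Usp39-HKO liver than in every control. Hba-a1 read 116.7, 261, 166.5 and 168.4 FPKM in control livers and 53.1, 95.8, 113.3 and 57.6 FPKM in Usp39-HKO livers, a mean of 178 ± 60.2 against 79.9 ± 29.4 (SD, n = 4 per genotype). The highest Usp39-HKO liver, A471, lay just below the lowest control, A468, and the log2 fold change in the fit across all genes was −1.38 (SE 0.28). Hba-a2 read 47.4, 89.5, 69.1 and 68.1 FPKM in controls and 11.3, 34.3, 39.9 and 23.4 FPKM in Usp39-HKO livers, with a log2 fold change of −1.57 (SE 0.31). Control A472 was the highest of all livers for both genes and Usp39-HKO A469 the lowest. Of the 100-base stretches of the longest transcript, 56.5% of those of Hba-a1 and 74.5% of those of Hba-a2 also occur in the other gene. How reads that fit both were counted is not given in the sources used here, so the split between the copies is less certain than their sum.

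The beta globin genes were lower as well, with a small overlap for the more abundant of the pair. Hbb-bs read 154.9, 345.7, 240.7 and 213.0 FPKM in controls and 80.8, 132.8, 178.4 and 79.7 FPKM in Usp39-HKO livers, a mean of 239 ± 79.9 against 118 ± 47.3 (SD, n = 4 per genotype). Here Usp39-HKO A471 exceeded control A468, so the genotypes overlapped by this pair of livers, and the log2 fold change was −1.24 (SE 0.29). Hbb-bt read 27.4, 52.7, 36.9 and 21.4 FPKM in controls and 4.83, 14.8, 19.98 and 8.55 FPKM in Usp39-HKO livers, with a log2 fold change of −1.76 (SE 0.38). Its genotypes did not overlap, though Usp39-HKO A471 came close to control A475. As for the alpha pair, 62.6% of the 100-base stretches of Hbb-bs and 54.8% of those of Hbb-bt occur in the other gene.

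Alas2 was the member with the tightest control values. It read 22.3, 22.3, 24.5 and 26.8 FPKM in controls and 4.75, 12, 12.8 and 4.35 FPKM in Usp39-HKO livers. The Usp39-HKO livers fell into a lower pair (A469 and A474) and a higher pair (A470 and A471), all below the lowest control, and the log2 fold change was −1.72 (SE 0.31). Of the Alas2 exon bases, 15.5% lie opposite exons of Apex2 and Mir3620, and whether counting used the strand is not given. Apex2 itself read between 1.59 and 1.93 FPKM in controls, and 1.59 to 2.08 FPKM in the knockouts.

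Slc4a1 was close to the limit of detection. It had 11, 53, 12 and 19 counts in controls (0.245, 1.09, 0.286 and 0.373 FPKM) and 4, 10, 3 and 1 counts in Usp39-HKO livers (0.0842, 0.201, 0.0643 and 0.0216 FPKM). The genotypes did not overlap, control A472 stood far above the other controls, and Usp39-HKO A471 and A474 were at or under the floor of 3 counts. Only 1 liver reached 0.5 FPKM, and a gene had to reach that in at least 4 livers to be tested, so Slc4a1 is the member that did not pass this filter.

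**Figure D1:**
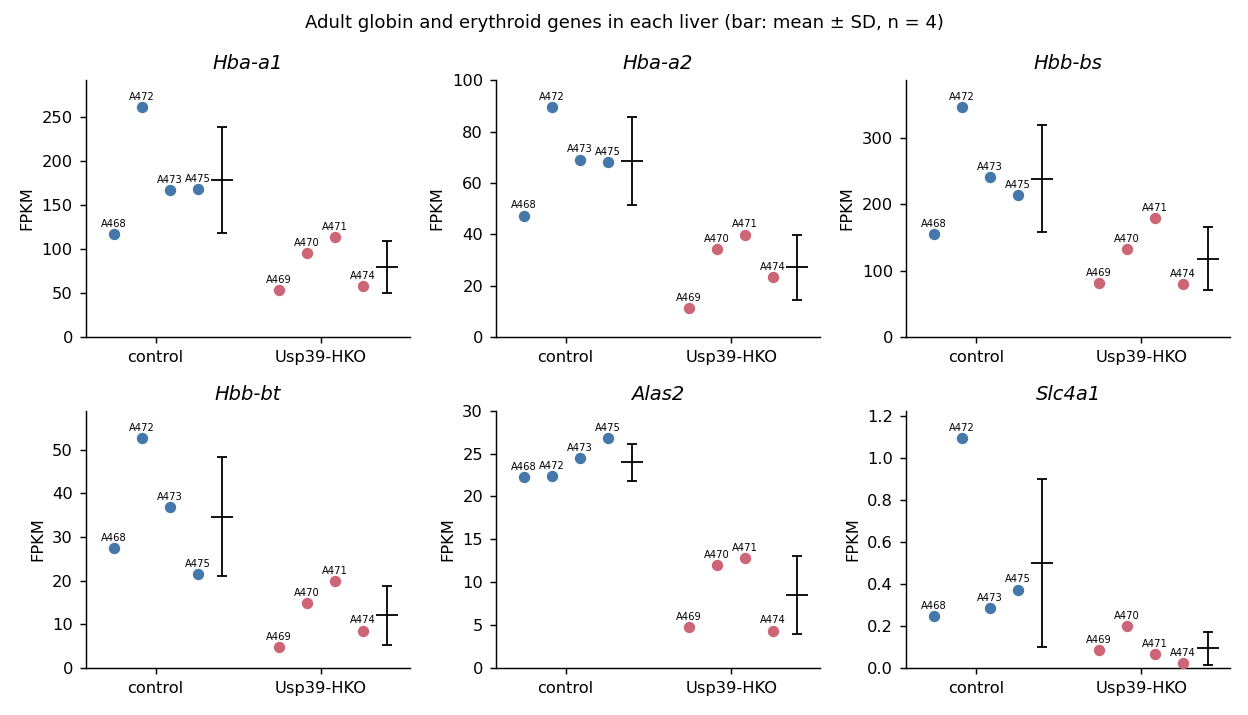
FPKM of the 6 genes in each liver, with control mice in blue, Usp39-HKO mice in red and the mean ± SD of each genotype (n = 4) as a bar beside the points; each vertical axis is linear, starts at 0 and has its own range. For Hba-a1, Hba-a2, Hbb-bt, Alas2 and Slc4a1 every Usp39-HKO point is below every control point, and for Hbb-bs A471 (178.4) is above A468 (154.9).

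All 5 members that passed the filter had an adjusted p under 0.05 and a lower level in Usp39-HKO livers, beside 11.6% of the 14340 genes tested called lower and 22.5% called in either direction, and all 5 passed the cutoff used in the study (unadjusted p under 0.05, log2 fold change under −0.5), beside 9.62%. Their log2 fold changes were all −1 or below, beside 3.31% of genes tested. In FPKM, 4 of the 5 did not overlap between the genotypes and were lower in Usp39-HKO livers, beside 4.81%. These counts follow from how the genes were chosen and nothing is read from them. The median log2 fold change of the 5 was −1.57 and that of all genes tested −0.0015. Without scaling factors between libraries the median over all genes moved by 0.23, and the 5 fold changes then ran from −1.52 to −1.02.

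Summing the copies avoids the division of reads between them. Reads that fit both copies would still be missing from the sums and ratios below if counting left them out, which is not known. The 4 adult globin genes took 2429, 5692, 3368 and 3759 counts in controls, or 0.0265%, 0.0574%, 0.0392% and 0.0361% of all counts, and 1128, 2172, 2573 and 1228 counts in Usp39-HKO livers, or 0.0116%, 0.0213%, 0.0270% and 0.0130%. In FPKM the controls summed to 520 ± 168 and the Usp39-HKO livers to 237 ± 94.8 (SD, n = 4 per genotype), 2.19-fold higher in controls, with A471 (351.6) just above A468 (346.3). The highest liver held 2.16 times the summed globin of the lowest within the controls and 2.34 times within the Usp39-HKO livers. These are ranges over 4 livers, a measure unlike the 2.19-fold ratio of means. On the log2 scale of summed globin CPM, the pooled SD within a genotype was 0.53, beside a log2 ratio of −1.36. In these bulk samples, fewer cells of a type and less RNA per cell cannot be told apart.

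The balance of the chains moved less than their level. Controls held 247 ± 77.2 FPKM of summed alpha globin and 273 ± 92.1 of beta globin, and Usp39-HKO livers 107 ± 41.5 of alpha and 130 ± 53.8 of beta (SD, n = 4 per genotype). The ratio of alpha to beta averaged 0.909 ± 0.0697 over the control livers against 0.831 ± 0.0811 over the knockouts, and the genotypes overlapped. Hba-a1 made up 71.9 ± 1.75% of control alpha globin FPKM and 75.3 ± 4.97% of that in Usp39-HKO livers, and Hbb-bs 87.3 ± 2.5% and 91.1 ± 2.15% of the beta globin FPKM. Relative to 100 FPKM of summed globin, Alas2 stood at 6.44, 2.98, 4.77 and 5.69 FPKM in controls and 3.17, 4.32, 3.65 and 2.57 FPKM in Usp39-HKO livers. That ratio was lowest among controls in A472, the liver with the most globin, and overlapped between the genotypes.

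**Figure D2:**
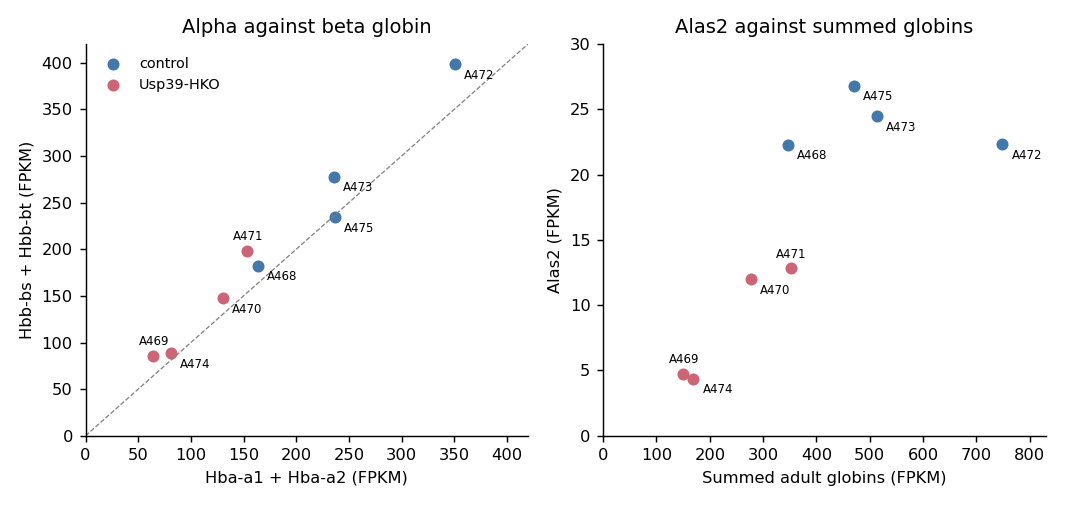
Left, summed alpha globin (Hba-a1 + Hba-a2) against summed beta globin (Hbb-bs + Hbb-bt) in FPKM, with a dashed line at equal values; right, the sum of all 4 adult globins against Alas2, both in FPKM. Each point is a liver (blue, control; red, Usp39-HKO): the chains lie along a single line, while the control livers keep Alas2 between 22.3 and 26.8 over globin sums from 346.3 to 748.9.

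Within a genotype the globin genes rose and fell together from liver to liver. After removal of the genotype means, log2 levels over the 8 livers correlated at r = 0.987 between Hba-a1 and Hbb-bs, which lie on different chromosomes, and at 0.9 between the minor copies Hba-a2 and Hbb-bt. Alas2 correlated with the 4 globins at between 0.697 and 0.737. Slc4a1 correlated with them at between 0.37 and 0.695 and with Alas2 at 0.479, on few counts. A472 was the control highest in all 4 globins and in Slc4a1 but not in Alas2, where A475 was highest. Among Usp39-HKO livers A470 and A471 were above A469 and A474 for all 4 globins and for Alas2. Points that share a library share its depth and RNA, so these values describe the livers and carry no p-value.

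Outside the members, 14335 genes were ranked by the same correlation with the summed globin level. The 10 highest included Vapb (r = 0.981), Mrps18a (0.976), Gm6135 (0.972), 9130230N09Rik (0.967), Fars2 (0.962), Bri3 (0.961), Lipc (0.958), Zfand3 (0.955) and Ypel3 (0.943). Gm6135 had between 4 and 29 counts in a liver and 9130230N09Rik between 5 and 18, so their r rests on few counts. Hba-a1 and Hbb-bs, which make up most of the sum, reached 0.995 and 0.993, and Alas2 0.752, below all 10. In all, 45 of the other genes (0.314%) had an r of at least 0.9. Of those named, Gm6135, Bri3 and Lipc were also among the highest 10 both without scaling factors and by Spearman correlation, and 5 of the 10 remained under each of these taken alone. None of the canonical red cell genes of the lists below was among them.

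Of the other genes of the globin family, most were at or near 0. The embryonic globins Hba-x, Hbb-bh1, Hbb-bh2 and Hbb-y and the muscle gene myoglobin (Mb) had 0 counts in all 8 livers, which allows up to 3 counts in a library. The theta globins Hbq1a and Hbq1b and neuroglobin (Ngb) had at most 4 counts in a liver and were not tested: Hbq1a had 1, 0, 1 and 1 counts in controls and 0, 1, 0 and 0 in Usp39-HKO livers, and Hbq1b 0, 4, 1 and 0 counts and 0 in each. Ngb had 4 counts in each control and 3, 4, 1 and 1 in the knockouts. Of the 9 other globins only cytoglobin (Cygb), the globin of stellate cells and fibroblasts, was abundant enough to be tested. Cygb read 2.80, 2.47, 2.50 and 2.68 FPKM in controls and 6.97, 11.2, 11.9 and 18.3 FPKM in Usp39-HKO livers. It was higher in every Usp39-HKO liver (log2 fold change 1.95, SE 0.22, edgeR, Benjamini-Hochberg adjusted p = 0.000494, n = 4 per genotype), the opposite direction to the adult globins.

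The remaining genes of heme synthesis, which hepatocytes also express, moved by less than Alas2. All 15 were tested. In Usp39-HKO livers 7 were lower and 1 higher (edgeR, Benjamini-Hochberg adjusted p under 0.05 over all genes), with a median log2 fold change of −0.30, where 11.6% of all genes tested were called lower and 10.9% higher. The lower count depended on scaling: without scaling factors, and by limma on FPKM, 1 gene was called lower and 2 higher. It was 4 without control A473 or without control A475. Abcb10, a mitochondrial transporter needed for hemoglobin synthesis, fell in all settings that could test it (log2 fold change −0.86, SE 0.14, adjusted p = 0.00206), from 6.07, 5.39, 5.16 and 5.42 FPKM in controls to 3.06, 4.44, 3.48 and 3.28 FPKM. Of its exon bases, 10.3% lie opposite Gm45890. Clpx, the unfoldase that activates aminolevulinate synthase, fell by 0.54 on the log2 scale (SE 0.14, adjusted p = 0.0164), and Fech, which inserts iron into the ring, by 0.47 (SE 0.11, adjusted p = 0.0113), and both overlapped between the genotypes in FPKM. Flvcr1, an exporter of heme, rose (log2 fold change 0.73, SE 0.17, adjusted p = 0.00976), with 15.6% of its exon bases opposite A230020J21Rik.

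Alas1, the counterpart of Alas2 in hepatocytes, did not go down. It read 113.3, 140.2, 97.0 and 91.5 FPKM in controls and 208.5, 195.4, 144.2 and 160.5 FPKM in Usp39-HKO livers. All Usp39-HKO livers were above all controls, beside 23.9% of the genes tested, but the fit across all genes gave a log2 fold change of 0.45 (SE 0.18) and an adjusted p of 0.0976, past the threshold of 0.05 in 4 of 14 other settings. Alas1 was thus several times as abundant per length as Alas2 in every liver.

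Structural genes of the red cell were hardly detected. Of 16 genes of the red cell membrane and its skeleton other than Slc4a1, 3 were abundant enough to be tested (Epb41, Gypc and Xk, all used by other cells too) and none was called in either direction by edgeR, by DESeq2, by limma or at an unadjusted p under 0.05, with a median log2 fold change of 0.04. The share called by edgeR over all genes tested was 22.5%. Epb42, Rhag, Rhd and Kel had between 0 and 4 counts in every liver, and Icam4 had 0 in all. The exon bases of Icam4 lie 100% opposite Gm47079, and whether counting used the strand is not given, so its 0 need not mean absence.

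The transcription factors of red cell precursors were near 0 or not called lower with all 8 livers, though 1 (Klf1) was called lower without Usp39-HKO A469. Gata1, the master factor of the lineage, had 0 or 1 count in every liver. Of 12 regulators 6 were tested, and 1 was called higher and none lower (1 was lower at an unadjusted p under 0.05, and none by DESeq2 or limma), with a median log2 fold change of 0.10. The shares over all genes tested were 10.9% higher and 11.6% lower. The gene called was Lmo2, a bridging partner of GATA1 that endothelial cells also express, from 2.92, 4.29, 3.82 and 3.46 FPKM in controls to 5.61, 5.98, 5.27 and 7.94 FPKM (log2 fold change 0.53, SE 0.16, edgeR adjusted p = 0.0358), a call lost without control A468, A473 or A475 and without Usp39-HKO A470 or A474. Klf1, which activates adult beta globin, read 2.42, 2.11, 1.902 and 3.39 FPKM in controls and 3.16, 0.641, 1.51 and 1.999 FPKM in Usp39-HKO livers. Its genotypes overlapped, with a log2 fold change of −0.66 (SE 0.39, adjusted p = 0.261) that became −1.09 and passed the threshold without A469, and its order among the Usp39-HKO livers was not that of the globins, A469 being the highest for Klf1 and among the lowest for hemoglobin.

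Genes of red cell cytosol, iron uptake and terminal maturation moved in both directions. Of 16 genes 14 were tested, 4 were lower and 1 higher (edgeR, Benjamini-Hochberg adjusted p under 0.05), and the median log2 fold change was −0.07. Among all genes tested, 11.6% were called lower and 10.9% higher. Tspan33, a tetraspanin of red cell precursors, fell by 0.58 (SE 0.16, adjusted p = 0.0237), and the carbonic anhydrase gene Car2 rose by 0.87 (SE 0.24, adjusted p = 0.0248). Tspan33 lost its call without scaling factors, by limma, and without control A468 or A475 or Usp39-HKO A470 or A474, and Car2 without control A468, A473 or A475. The list had between 1 and 3 genes lower with a mouse left out. The transferrin receptor gene Tfrc, which supplies iron to hemoglobin-making cells, had a log2 fold change of 0.22 (SE 0.23, adjusted p = 0.518), and Cldn13 had 0 counts in all livers. Ahsp was not analysed here.

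**Figure D3:**
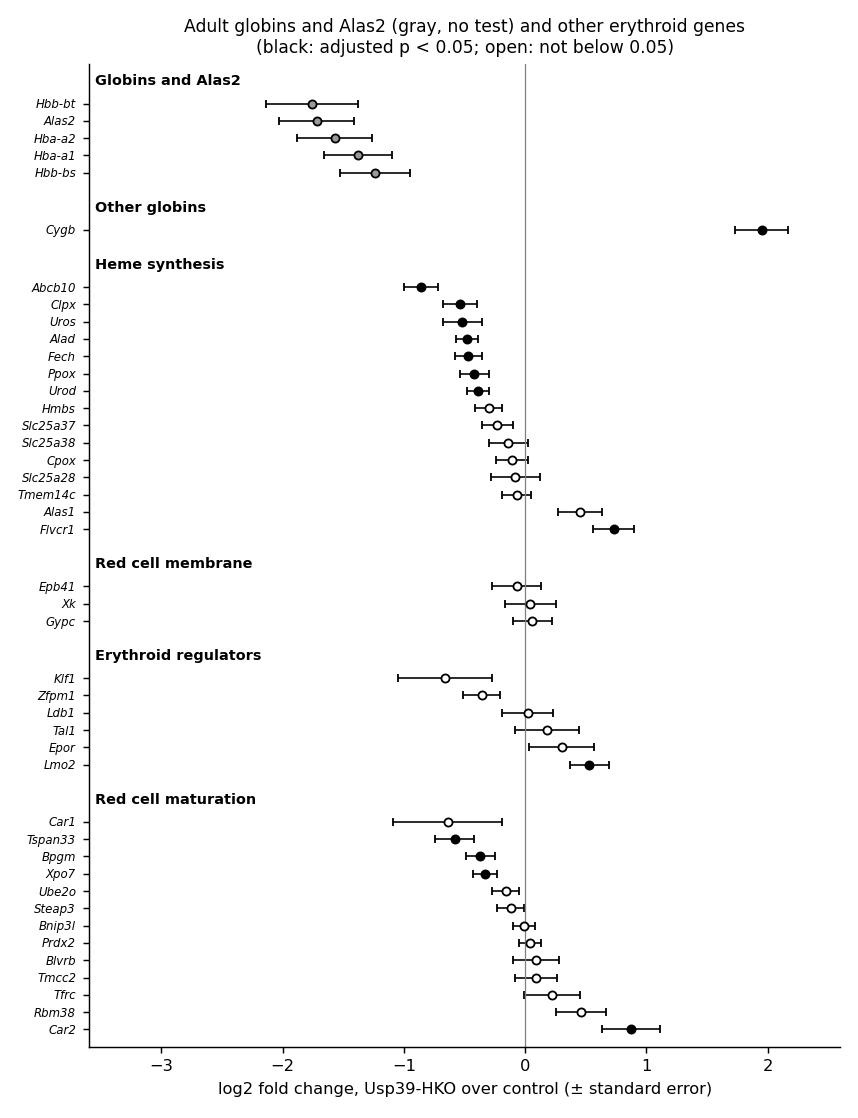
Log2 fold change, Usp39-HKO against control (horizontal axis, with its standard error as a bar) for the adult globins and Alas2 in gray, which carry no test, and for tested genes of the other erythroid lists, black where the edgeR adjusted p is under 0.05 and open where it is not. The gray points lie between −1.76 and −1.24, and Cygb (1.95) lies furthest right.

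Genes that bind and break down free hemoglobin and heme, a task shared by hepatocytes and macrophages, moved in both directions. Of 10 genes, all tested, 2 were lower and 1 higher, with a median log2 fold change of 0.02. Among all genes tested, 11.6% were called lower and 10.9% higher. Hmox1, the inducible heme oxygenase, read 24.4, 26.1, 26.2 and 29.2 FPKM in controls and 47.8, 49.5, 49.4 and 98.7 FPKM in Usp39-HKO livers, with A474 far above the rest (log2 fold change 0.96, SE 0.18, edgeR adjusted p = 0.0046). The constitutive Hmox2 fell by 0.36 (SE 0.11, adjusted p = 0.0342) and Lrp1, the receptor that takes up heme bound to hemopexin, by 0.39 (SE 0.13, adjusted p = 0.0472), both with overlap in FPKM, and 40.2% of the exon bases of Hmox2 lie opposite Cdip1. No gene of this list was called lower without control A472, A473 or A475, without Usp39-HKO A470 or A474, without scaling factors or by limma, and 4 were called higher without scaling factors and 2 by limma. Haptoglobin (Hp), the plasma protein that binds free hemoglobin, averaged 1630 ± 152 FPKM over controls against 1320 ± 570 over Usp39-HKO livers (SD, n = 4 per genotype; log2 fold change −0.51, SE 0.27, adjusted p = 0.209). Hemopexin (Hpx), which binds free heme, averaged 1860 ± 202 and 2080 ± 795 FPKM, with a log2 fold change of −0.05 (SE 0.26, adjusted p = 0.913) whose sign turned without scaling factors.

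Of 12 genes of erythropoietin, its oxygen sensors and its signalling, 10 were tested, 1 was lower and none higher (1 was higher at an unadjusted p under 0.05, none by DESeq2 and 1 by limma), with a median log2 fold change of −0.07. The shares over all genes tested were 11.6% lower and 10.9% higher. Epo, the hormone that drives red cell formation, had 0 counts in all livers. Stat5b, which transmits its receptor's signal but also that of growth hormone, fell by 0.54 (SE 0.13, edgeR adjusted p = 0.0122), with overlap in FPKM, a call lost without scaling factors (−0.31) and by limma (−0.29).

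Markers of other blood cells were set beside the members, since blood in the tissue brings white cells and platelets as well. Of the tested markers, 4 of 9 for platelets, 10 of 11 for neutrophils, 6 of 8 for B cells and 6 of 8 for T and NK cells, none was called in either direction (edgeR, Benjamini-Hochberg adjusted p under 0.05). The share called over all genes tested was 22.5%. At an unadjusted p under 0.05, 1 neutrophil marker was lower and 2 B cell markers were higher, DESeq2 called none and limma called 1 B cell and 1 T or NK marker higher. Without scaling factors 2 B cell markers were called higher, without Usp39-HKO A469 1 was, and without a filter on low values 1 neutrophil marker was called lower. The median log2 fold changes were 0.25, 0.03, −0.14 and 0.27. The members stood at −1.57, but they were chosen for lower values in these livers, so the gap is no test. Summed over each list, platelet markers reached between 3.36 and 7.25 FPKM in controls and between 4.29 and 7.13 in Usp39-HKO livers, and neutrophil markers 29.5 to 75.6 and 18.4 to 103. B cell markers reached 10.9 to 16.2 and 12.2 to 19.5 FPKM, and T and NK markers 5.6 to 8.12 and 8.47 to 10.1 FPKM. The T and NK sums did not overlap and were higher in Usp39-HKO livers. Of the single genes tested, 23.9% did the same in FPKM, which carry no scaling between libraries. The platelet gene Gp1bb had 0 counts in all livers. Of its exon bases, 92.9% overlap Sept5 and Gm49601 on the same strand, and how such reads were counted is not given. Its 0 therefore need not mean absence. The part of blood content in the levels of the members was not tested.

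The resident cells of the liver moved as follows beside the members, where 11.6% of all genes tested were called lower and 10.9% higher. All 6 markers of Kupffer cells, the macrophages that take up aged red cells, were tested and 4 rose: Marco (log2 fold change 1.25, SE 0.29, edgeR adjusted p = 0.0117), Cd5l (0.75, SE 0.14, adjusted p = 0.00355), Vsig4 (0.73, SE 0.16, adjusted p = 0.00949) and Clec4f (0.35, SE 0.10, adjusted p = 0.0336). The call of Clec4f was lost without a filter, without control A468, A473 or A475 and without Usp39-HKO A471 or A474, and the other 3 kept theirs in all settings. Their list summed to between 264 and 345 FPKM in controls and between 489 and 718 in Usp39-HKO livers, with a median log2 fold change of 0.55. Of 5 endothelial markers, Lyve1 fell by 1.0 (SE 0.25, adjusted p = 0.016) and Stab2 by 0.37 (SE 0.12, adjusted p = 0.0481), with a median of 0.02. Of 7 hepatocyte markers, Apoa2 fell by 0.51 (SE 0.16, adjusted p = 0.0397) and Cps1 by 0.48 (SE 0.16, adjusted p = 0.0443), with a median of −0.34. Of the 4 falls in these lists, none was called without control A473, and only that of Lyve1 was called without scaling factors or by limma, where 2 endothelial markers were called higher. Stab2 and Apoa2 each lost their call in 10 of 14 other settings, and Cps1 in 9 of 14. Whether these shifts bear on the globin levels was not tested.

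**Figure D4:**
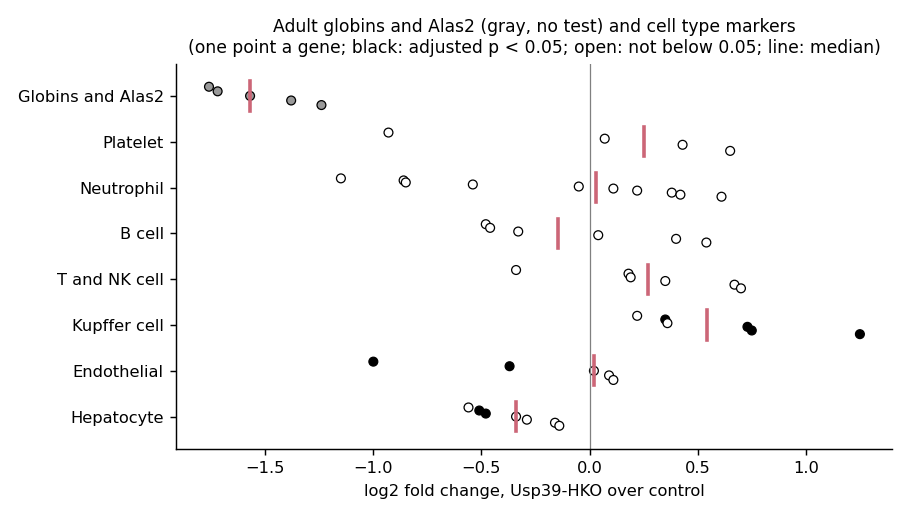
Log2 fold change, Usp39-HKO against control, for the adult globins and Alas2 (gray, no test) and for the tested markers of 7 other cell types (black, edgeR adjusted p under 0.05; open, not under 0.05), with a red line at each median. The gray points (−1.76 to −1.24) lie left of every marker, which follows from their choice for lower values in these livers. The medians of the other cell types run from −0.34 for hepatocytes to 0.55 for Kupffer cells.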

How the data were processed

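Liver RNA of 8 mice, 4 per genotype, was sequenced with a library for each mouse. The authors aligned reads to mm10 with HISAT2 and deposited raw counts per gene from featureCounts. The annotation release, the use of strand and how reads fitting more than 1 gene were handled are not given in the sources used here. The authors also deposited FPKM, which divide those counts by exon length and the library total and so carry no scaling between libraries. Columns of the authors' DESeq2 comparison (mean, fold change, error, statistic and p-values) were not used.

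The 314 repeated entries of the table were read once. Identifiers were matched to GENCODE vM21 (GRCm38), which held 99.6% of them. Genes reaching an FPKM of 0.5 in 4 or more of the 8 livers (14340) entered edgeR 4.0.16 (quasi-likelihood test on counts, no covariates, TMM factors between 0.912 and 0.94 for controls and between 1.01 and 1.19 for Usp39-HKO livers), with Benjamini-Hochberg adjustment over all of them. The common BCV (biological coefficient of variation) was 0.179. Standard errors come from each fold change with its F statistic. The fit was also run on simulated counts in which every gene had the common BCV, and no result here rests on that run. Libraries of a genotype differed beyond counting error (chi-square over its degrees of freedom 7.02 to 36.4), and the limit of 3 counts covers counting error only. The labels name the mice separately, and p-values measure the spread between them. Alternatives were DESeq2 1.42.0, limma 3.58.1 on log2(FPKM + 1), no scaling factors, other filters, totals without the 6 genes, and each mouse left out.

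The 6 genes and the 14 gene lists (142 genes, 101 tested) were chosen with earlier results of these data known. Named were all members, in each list every called gene where 4 or fewer were called and otherwise the 2 largest rises and 2 largest falls, some genes of the pathway in any case, and the 10 genes most like the summed globins. A few others (Apex2, Epb41, Gypc, Xk, Epb42, Rhag, Rhd, Kel, Hbq1a, Hbq1b, Ngb) were named after their values were seen, to explain a value or a count. Values of some genes that this rule would name are not reported here.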

Additional observations from a re-analysis of the deposited data

Results flagged for a closer look

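In 10 of 116 groups of 4 livers examined, 1 liver lay further from the others than Dixon's 95% limit allows. Chance alone marks about 1 in 20 groups. Among the members, Slc4a1 in control A472 read 1.093 FPKM, where the next control read 0.3729, and Hba-a1 made up 74.46% of alpha globin FPKM in control A472, where the next control had 71.22%. Hbb-bs made up 94.36% of beta globin FPKM in Usp39-HKO A469, where the next had 90.3%. Among genes of the pathway, Usp39-HKO A474 stood apart for Flvcr1 (3.647 FPKM, next 2.484) and Hmox1 (98.74 FPKM, next 49.52), and Usp39-HKO A471 for Tspan33 (2.36 FPKM, next 1.763). Gata1 was at 0.0 FPKM in control A475 and at 0.04138 in the next control, a difference of 1 count. The other cases were Marco in control A472 (49.1 FPKM, next 20.99), Lyve1 in control A473 (28.76 FPKM, next 21.77) and Fars2 in Usp39-HKO A469 (4.566 FPKM, next 5.274).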

How the results depend on the processing

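The members were chosen for lower values in these livers, so their values under other settings are no support. Over the 14 other settings the 5 had log2 fold changes between −2.13 and −1.01, and Slc4a1 joined them (−2.64) where no filter was used. The log2 ratio of summed globin was −1.36, between −1.62 and −1.13 over its alternatives. Of 525 comparisons with an alternative, 409 were rated the same. For a count of calls this meant a change of at most 1.5 times. For the fold change of a member it meant a shift, without reversal, of less than its pooled SD within a genotype. For the other genes it meant keeping direction and side of the threshold. With genes at a mean FPKM of at least 5, calls among all genes fell from 3225 to 1595 and lower calls from 1664 to 845, as fewer genes were tested. Lower calls numbered 702 without scaling factors and 620 by limma, and the share of calls that were higher went from 48.4% to 83.3% without scaling. Leaving out a mouse gave 1931 to 3510 calls, 949 to 1666 of them lower, and both counts were over 1.5 times smaller without control A473, control A475 or Usp39-HKO A474. In the lists, 9 genes were called higher (21 without scaling, 17 by limma, 6 to 12 with a mouse left out) and 18 lower (3 without scaling, 3 by limma, 7 at a mean FPKM of at least 5, 7 to 19 with a mouse left out, the counts without A468, A471, A473, A474 or A475 being over 1.5 times smaller). Of the 10 genes most like the globins, 5 remained without scaling and 5 by Spearman. The log2 fold change of Hpx turned to 0.16 without scaling, 0.093 by limma and 0.019 at a mean FPKM of at least 5, and ran from −0.36 to 0.11 with a mouse left out, above 0 without control A472, Usp39-HKO A470 or A474. The cause of these shifts was not tested. No paired analysis was possible because the labels give the genotypes no shared replicate numbers. Depth limits Slc4a1 and Gata1, which lie at a few counts.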
